A study of Mus musculus with 9 samples.

Results

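The RNA of blood vessels was followed in cochlear ducts through 33 genes known from endothelial cells, the cells that line blood and lymph vessels. The genes were listed by name and matched to the counts by Ensembl ID, and all 33 were found among the 54232 genes of each count file. RNA sequencing was done on 9 libraries from mouse embryos at E14.5, 3 each of WT (Prdm16 +/+), heterozygote (Prdm16 cGT/+, below Het) and null (Prdm16 cGT/cGT, below Null). The cGT allele is a gene trap that removes the function of Prdm16, all groups were on an FVB/NJ background, and each library held the cochlear ducts of both inner ears of 1 embryo, microdissected by hand. The embryos of the 3 genotypes were littermates, and the study asked which RNAs of the duct depend on Prdm16, a transcription factor of its epithelium.

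Endothelial cells receive VEGF through the receptors Kdr, Flt1 and Flt4 and angiopoietins through Tek, which pairs with Tie1. They hold together through cadherin and claudin junctions made of Cdh5 and Cldn5, and their identity rests on transcription factors of the ETS family (Erg, Fli1, Ets1) and the SOX family (Sox7, Sox17, Sox18). The cochlear duct is an epithelium without vessels of its own at this stage. Its vessels run in the surrounding mesenchyme, which a dissection can take along.

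Total counts ran from 24095322 to 30819118 per library, and libraries of one genotype differed by 5.7 to 68.8 in chi-square per gene, where a repeated library would give about 1. Prdm16 was at 184 to 225 CPM (counts scaled to one library size by the TMM method) in WT, 122.6 to 151.1 CPM in Het and 19.1 to 27.4 CPM in Null, as labelled. The 12 markers of cochlear epithelium summed to 11212 to 19305 CPM, most of it from the otoconial gene Oc90 (7243 to 13368 CPM), so that markers of the labelled tissue were abundant in each library. A count of 3, taken as the floor of a library, corresponds to 0.0968 to 0.126 CPM, and floors and intervals of counts cover counting error only. Nothing in the labels says that libraries were prepared in batches.

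The sum of the 33 genes was high in 2 WT libraries, 1 Null library and no Het library. It was 238.6, 221.7 and 34.5 CPM in WT 1, WT 2 and WT 3, 32.8, 32.2 and 39.6 CPM in the 3 Het libraries, and 32.8, 33 and 187.2 CPM in Null 1, Null 2 and Null 3. Thus WT 1, WT 2 and Null 3 each held more than 4 times the endothelial RNA of any of the other 6 libraries, among which the sum varied from 32.2 to 39.6 CPM. Genotype means were 164.9 ± 113.3 CPM in WT, 34.8 ± 4.11 CPM in Het and 84.4 ± 89.1 CPM in Null (SD, n = 3), and in WT and Null the spread was of the size of the mean. The members took 0.0241% of all counts in WT 1 (exact binomial 95% interval 0.0235 to 0.0246%), 0.0221% in WT 2 (0.0216 to 0.0227%) and 0.0181% in Null 3 (0.0176 to 0.0187%), against 0.00322 to 0.00397% in the other libraries. In bulk RNA, fewer endothelial cells and less RNA per cell cannot be told apart.

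**Figure D1:**
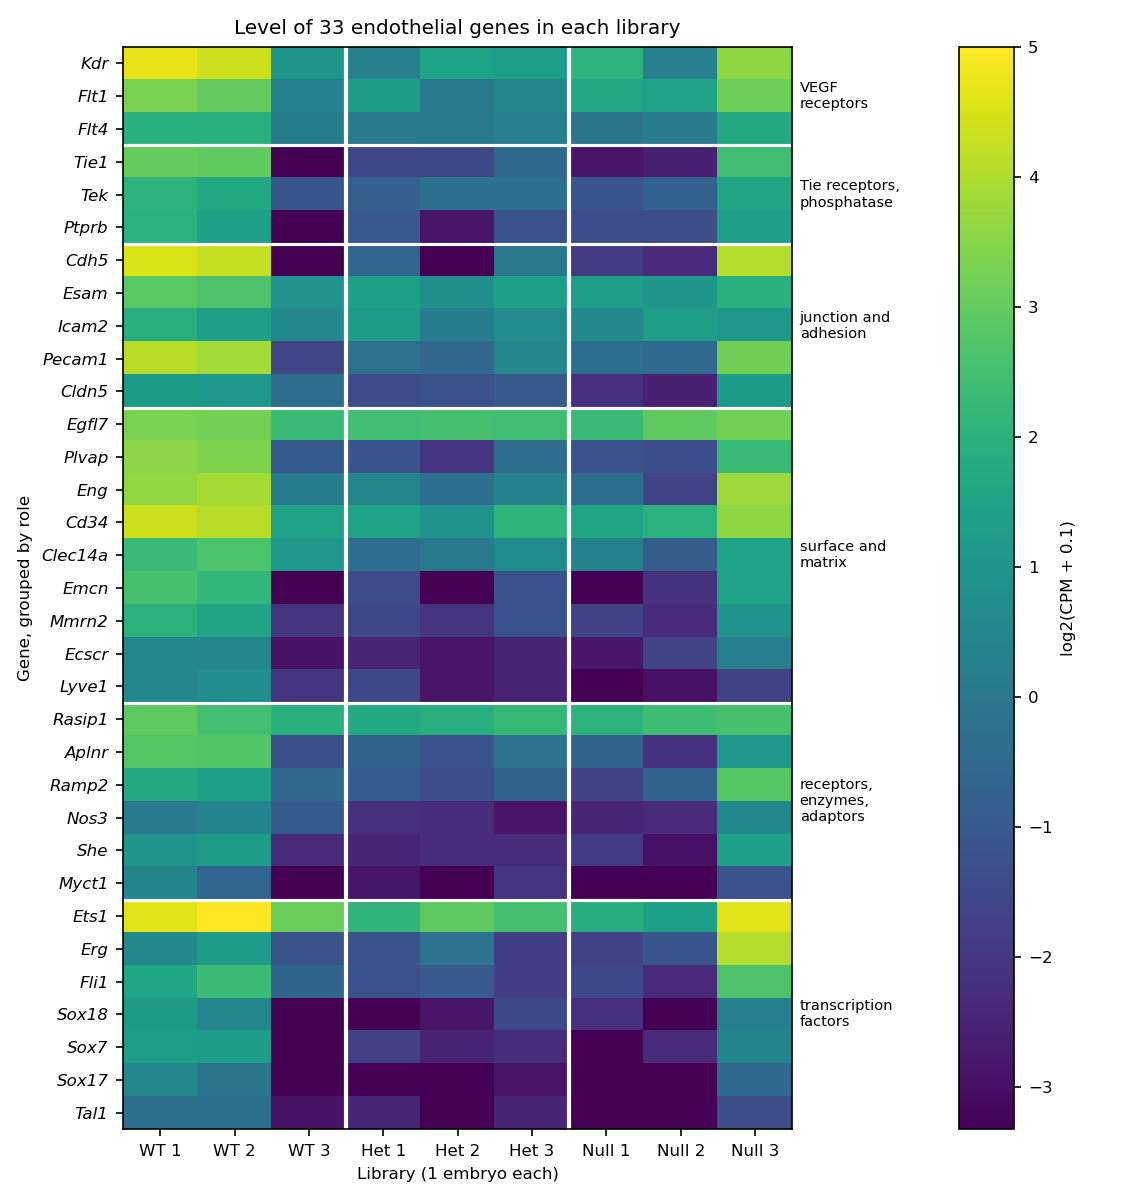
Level of each of the 33 endothelial genes (rows, grouped by role and ordered within a role by mean CPM per kb) in each library (columns), as log2(CPM + 0.1). The columns WT 1, WT 2 and Null 3 are bright for most genes, while Egfl7, Rasip1, Icam2 and Esam stay visible in all 9 columns.

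The same 3 libraries were the highest for 31 of the 33 genes, and of 17667 genes tested in any comparison 4.56% shared that order. The exceptions were Icam2, for which Null 2 exceeded Null 3, and Lyve1, for which Het 1 did. WT 1 was the highest library for 22 genes, WT 2 for 6 and Null 3 for 5. Among the other 6 libraries many genes were at the floor. WT 3 held 0 counts of 8 members (Tie1, Emcn, Cdh5, Sox7, Sox17, Sox18, Ptprb and Myct1), Null 1 of 6, Het 2 of 5, Null 2 of 4, Het 1 of 2 and Het 3 of 0, whereas WT 1, WT 2 and Null 3 had more than 3 counts of every member. Only 7 members reached 1 CPM in all libraries, namely Kdr, Esam, Egfl7, Ets1, Cd34, Icam2 and Rasip1.

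Of the 33 genes, 16 have promoters among the RefSeq sequences used here (GRCm38.p6, the 250 bases before to 50 bases after each start), with 21 starts in all. Short motifs of the ETS, SOX and GATA factor families were searched on both strands, and matches are shown in capitals in 4 of these promoters. Emcn and Tek are shown as genes of the 3 high libraries, Egfl7 as a gene present in every library and Erg as a gene with most of its counts in Null 3. The promoters lie at chr3:137340828-137341127 (Emcn, plus strand), chr4:94739039-94739338 (Tek, plus strand), chr2:26583615-26583914 (Egfl7, plus strand, 1 of 3 starts) and chr16:95459299-95459598 (Erg, minus strand, 1 of 3 starts).
Emcn: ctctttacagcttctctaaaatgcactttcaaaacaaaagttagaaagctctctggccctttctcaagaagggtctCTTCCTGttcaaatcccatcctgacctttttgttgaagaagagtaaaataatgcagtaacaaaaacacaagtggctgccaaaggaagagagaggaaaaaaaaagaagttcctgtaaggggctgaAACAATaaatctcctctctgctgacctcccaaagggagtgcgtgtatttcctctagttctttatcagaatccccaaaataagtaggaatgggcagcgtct
Tek: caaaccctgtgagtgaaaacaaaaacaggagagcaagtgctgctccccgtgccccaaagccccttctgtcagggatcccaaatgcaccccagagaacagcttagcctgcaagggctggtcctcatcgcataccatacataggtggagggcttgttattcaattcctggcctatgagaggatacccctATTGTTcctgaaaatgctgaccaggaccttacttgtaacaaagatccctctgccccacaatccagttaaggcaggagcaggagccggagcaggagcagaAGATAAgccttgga
Egfl7: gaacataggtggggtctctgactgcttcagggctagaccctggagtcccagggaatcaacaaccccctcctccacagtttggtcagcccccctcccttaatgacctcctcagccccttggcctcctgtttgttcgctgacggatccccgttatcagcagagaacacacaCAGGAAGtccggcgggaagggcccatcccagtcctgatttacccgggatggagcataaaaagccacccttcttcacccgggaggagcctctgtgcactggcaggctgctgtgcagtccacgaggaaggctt
Erg: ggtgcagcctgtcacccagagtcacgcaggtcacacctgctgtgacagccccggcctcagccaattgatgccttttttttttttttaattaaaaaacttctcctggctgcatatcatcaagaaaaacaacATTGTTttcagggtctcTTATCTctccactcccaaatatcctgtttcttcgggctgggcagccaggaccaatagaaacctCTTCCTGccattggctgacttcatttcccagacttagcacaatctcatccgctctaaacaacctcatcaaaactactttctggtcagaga
The ETS letters CAGGAAG occurred in 6 of the 21 member promoters, of the genes Cd34, Egfl7, Emcn, Erg and Rasip1, and in 13.3% of all 32851 promoters. The SOX letters AACAAT occurred in 3 member promoters, of Emcn, Tek and Erg, and in 10.7% of all, and the GATA letters AGATAA in 4, of Tek, Tal1, Myct1 and Erg, and in 11.2% of all. A match on the other strand is printed as its reverse complement, and no match shown overlaps another. A match of letters is a description and was not tested as a binding site.

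Among the VEGF receptors, Kdr (chr5:75932827-75978458 of mm10), the main receptor for VEGF signalling in blood endothelium, had the highest level per length, at 0.889 CPM per kb of exon over the 9 libraries. It was at 26.5, 20.4 and 2.00 CPM in WT, 1.16, 2.77 and 2.37 CPM in Het and 4.04, 1.13 and 11.9 CPM in Null. Kdr was high in WT 1, WT 2 and Null 3, and Null 1 exceeded all the remaining libraries. Flt1, a decoy receptor that binds VEGF, was at 9.88, 7.92 and 1.15 CPM in WT, 2.33, 0.973 and 1.28 CPM in Het and 3.09, 2.77 and 8.96 CPM in Null. Each Null library lay above each Het library for Flt1, while WT overlapped both genotypes. Flt4, the VEGF receptor of lymphatic and sprouting endothelium, was at 3.63, 3.76 and 3.18 CPM in WT 1, WT 2 and Null 3 and at 0.825 to 1.10 CPM elsewhere, a small difference beside that of Kdr.

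Tie1 (chr4:118471191-118490061), an orphan partner of the angiopoietin receptor, was at 8.07, 7.64 and 0 CPM in WT, 0.241, 0.252 and 0.585 CPM in Het and 0.0412, 0.0645 and 5.36 CPM in Null. WT 3 had 0 counts of Tie1, and against its floor of 3 counts WT 1 was at least 79.4-fold higher and Null 3 at least 52.7-fold higher. Null 1 and Null 2 held 1 and 2 counts. Tek, the angiopoietin receptor itself, was at 4.07, 3.21 and 2.85 CPM in WT 1, WT 2 and Null 3 and at 0.371 to 0.731 CPM elsewhere. Ptprb, the phosphatase VE-PTP that acts on Tek, was at 3.89, 2.59 and 2.43 CPM in those libraries and at 0 to 0.401 CPM elsewhere. The 3 genes summed to 10.6 to 16 CPM in the high libraries and 0.373 to 1.64 CPM in the others.

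Cdh5 (chr8:104101625-104144511), the VE-cadherin of endothelial junctions, was at 22.8, 19.1 and 0 CPM in WT, 0.562, 0 and 0.913 CPM in Het and 0.165, 0.0968 and 16.9 CPM in Null. WT 1 was at least 224.2-fold above WT 3, and Null 3 was 174.3-fold above Null 2 (exact 95% counting interval 59.2 to 848.6), where 3 counts stood against 403. Pecam1, an adhesion protein of endothelium, platelets and leukocytes, was at 17.3, 14.4 and 9 CPM in WT 1, WT 2 and Null 3 and 0.237 to 1.35 CPM elsewhere. Cldn5, the claudin of endothelial tight junctions, was at 2.22, 2.08 and 0.678 CPM in WT, 0.281, 0.324 and 0.402 CPM in Het and 0.124, 0.0645 and 2.22 CPM in Null. For Cldn5, unlike Cdh5, WT 3 lay above each Het library. Esam and Icam2, adhesion proteins that other cells also make, varied least among the 5 junction and adhesion genes. Esam was at 7.22, 6.27 and 3.77 CPM in WT 1, WT 2 and Null 3 and 1.66 to 2.56 CPM elsewhere, and Icam2 was at 3.66, 2.43 and 2.09 CPM against 1.04 to 2.39 CPM.

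Egfl7 (chr2:26580014-26593120), a secreted protein of the vessel matrix whose gene hosts a microRNA, had the highest level per length of all 33 genes, at 1.94 CPM per kb. It was at 9.96, 9.44 and 4.88 CPM in WT, 5.34, 5.80 and 5.30 CPM in Het and 4.78, 7.65 and 9.33 CPM in Null. Null 2 thus came close to the 3 high libraries for Egfl7, and no library lay below 4.78 CPM. Plvap, the diaphragm protein of fenestrated endothelium, was at 11.7, 10.4 and 0.407 CPM in WT, 0.361, 0.144 and 0.694 CPM in Het and 0.330, 0.290 and 4.86 CPM in Null, ranking second per length at 1.63 CPM per kb. Plvap in Null 3 was below WT 1 and WT 2 and above the rest.

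Eng, a co-receptor for TGF-beta ligands, was at 12.4, 14.6 and 13.5 CPM in WT 1, WT 2 and Null 3 and 0.226 to 1.28 CPM elsewhere. Cd34, a sialomucin also found on fibroblasts and blood progenitors, was at 20.6, 17.3 and 12.0 CPM and 1.80 to 4.13 CPM. The 3 libraries were close to each other for Eng, and Null 3 was lower for Cd34. Emcn, an endothelial sialomucin, was at 5.85, 4.47 and 2.68 CPM against 0 to 0.329 CPM, with 0 counts in WT 3, Het 2 and Null 1. Mmrn2, a matrix protein, and its binding partner Clec14a, a lectin-like surface protein, differed from each other. Mmrn2 was at 4, 2.82 and 1.80 CPM and 0.0968 to 0.329 CPM elsewhere. Clec14a was at 4.74, 6.15 and 2.07 CPM in WT, 0.682, 0.937 and 1.57 CPM in Het and 1.15, 0.452 and 2.76 CPM in Null, so that WT 3 stayed above Het. Ecscr, a small surface protein of endothelium, was at 1.30, 1.29 and 1.09 CPM against 0.0339 to 0.226 CPM. Lyve1, the hyaluronan receptor of lymphatic endothelium and some macrophages, was at 1.33, 1.61 and 0.136 CPM in WT, 0.241, 0.0360 and 0.0731 CPM in Het and 0, 0.0323 and 0.209 CPM in Null. Lyve1 was high in WT 1 and WT 2 alone.

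Among receptors, enzymes and adaptors, Rasip1 (chr7:45627488-45639093), a Ras-binding protein needed for vessel lumens, led per length at 1.52 CPM per kb. It was at 7.55, 5.60 and 3.76 CPM in WT, 3.33, 3.60 and 4.60 CPM in Het and 4.08, 5.29 and 5.90 CPM in Null. The range of Rasip1 was narrow, and 20.4% of its exon bases are shared with Izumo1 on the same strand, where reads cannot be assigned to one gene. Aplnr, the apelin receptor, was at 6.96, 6.58 and 0.305 CPM in WT, 0.522, 0.324 and 0.804 CPM in Het and 0.495, 0.129 and 2.09 CPM in Null. Ramp2, the partner of the adrenomedullin receptor, was at 3.33, 2.59 and 0.610 CPM in WT, 0.441, 0.288 and 0.512 CPM in Het and 0.206, 0.516 and 7.03 CPM in Null. Aplnr in Null 3 lay below WT 1 and WT 2 and above the other 6 libraries, whereas Ramp2 was highest in Null 3. Of the exon bases of Ramp2, 33.4% are shared with Vps25 on the same strand. Nos3, the endothelial nitric oxide synthase, was at 0.999, 1.25 and 0.407 CPM in WT, 0.120, 0.108 and 0.0365 CPM in Het and 0.0825, 0.0968 and 1.47 CPM in Null, and each Het library lay below each WT library. Part of its exons, 25.2%, faces the antisense gene Gm15587. She, an SH2-domain adaptor, was at 1.96, 2.35 and 2.51 CPM in WT 1, WT 2 and Null 3 and 0.0323 to 0.165 CPM elsewhere. Myct1, a membrane protein of endothelium with a mean count of 6.78, was at 1.26, 0.549 and 0 CPM in WT, 0.0401, 0 and 0.146 CPM in Het and 0, 0 and 0.335 CPM in Null.

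Among transcription factors, Ets1 (chr9:32636221-32757820), an ETS factor of endothelium, lymphocytes and mesenchyme, led per length at 1.49 CPM per kb. It was at 24.5, 32.4 and 8.41 CPM in WT, 4.21, 7.53 and 5.74 CPM in Het and 3.51, 2.55 and 24.7 CPM in Null. Ets1 was at 2.55 CPM or more in every library, and WT 3 lay above all Het libraries. Fli1, an ETS factor of endothelium and blood cells, was at 2.85, 4.98 and 0.542 CPM in WT, 0.321, 0.396 and 0.183 CPM in Het and 0.247, 0.0968 and 6.36 CPM in Null. Erg (chr16:95359169-95586593), an ETS factor of endothelium that cartilage progenitors also make, was at 1.44, 2.35 and 0.339 CPM in WT, 0.321, 0.792 and 0.183 CPM in Het and 0.206, 0.355 and 16.8 CPM in Null. A single library, Null 3, held most of the Erg counts. The SOX factors were low. Sox18 was at 2.22, 1.33 and 1.09 CPM in WT 1, WT 2 and Null 3 and 0 to 0.256 CPM elsewhere, and Sox7 at 2.37, 2.31 and 1.26 CPM and 0 to 0.201 CPM. Sox17, with a mean count of 8, was at 1.33, 0.823 and 0 CPM in WT, 0, 0 and 0.0365 CPM in Het and 0, 0 and 0.586 CPM in Null, so that 1 count was found outside the 3 high libraries. Tal1, a factor of blood progenitors and endothelium with a mean count of 5.67, was at 0.740, 0.745 and 0.0339 CPM in WT, 0.0802, 0 and 0.0731 CPM in Het and 0, 0 and 0.293 CPM in Null.

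To see whether the high libraries held the same mixture of endothelial RNAs, Null 3 was set against WT 1 and WT 2 gene by gene, as single libraries with counting intervals and no test of genotype. The median ratio of Null 3 to WT 1 over the 33 genes was 0.625, with an exact 95% interval below 1 for 21 genes and above 1 for 3. Against WT 2 the median was 0.817, with 14 intervals below and 2 above 1, and WT 2 against WT 1 gave 0.891, with 12 below and 5 above. The 3 genes above WT 1 were Erg, Fli1 and Ramp2. Erg in Null 3 was 11.7-fold above WT 1 (8.38 to 16.6) and 7.16-fold above WT 2 (5.45 to 9.55), the largest ratios of the set. Ramp2 was 2.11-fold (1.62 to 2.76) and 2.72-fold (2.03 to 3.67) higher. At the other end, Lyve1 in Null 3 was 0.157 of WT 1 (0.0481 to 0.402) and 0.130 of WT 2 (0.0402 to 0.329), from 5 counts, and Aplnr was 0.301 (0.216 to 0.413) and 0.318 (0.227 to 0.438).

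As a share of the summed member counts, Cdh5 took 9.56% in WT 1, 8.61% in WT 2 and 9.01% in Null 3, with overlapping exact binomial intervals of 8.85 to 10.3%, 7.89 to 9.37% and 8.19 to 9.89%. In the other 6 libraries its share was 0 to 2.31%. Erg took 8.99% in Null 3 (8.16 to 9.86%) and 0.462 to 2.46% in the others. Egfl7 took 4.17 to 4.99% in WT 1, WT 2 and Null 3 and 13.4 to 23.1% elsewhere, and Rasip1 2.53 to 3.16% against 10.2 to 16.0%. The mixture of member RNAs thus differed between high and low libraries, with Egfl7 and Rasip1 as larger shares in the low ones.

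**Figure D2:**
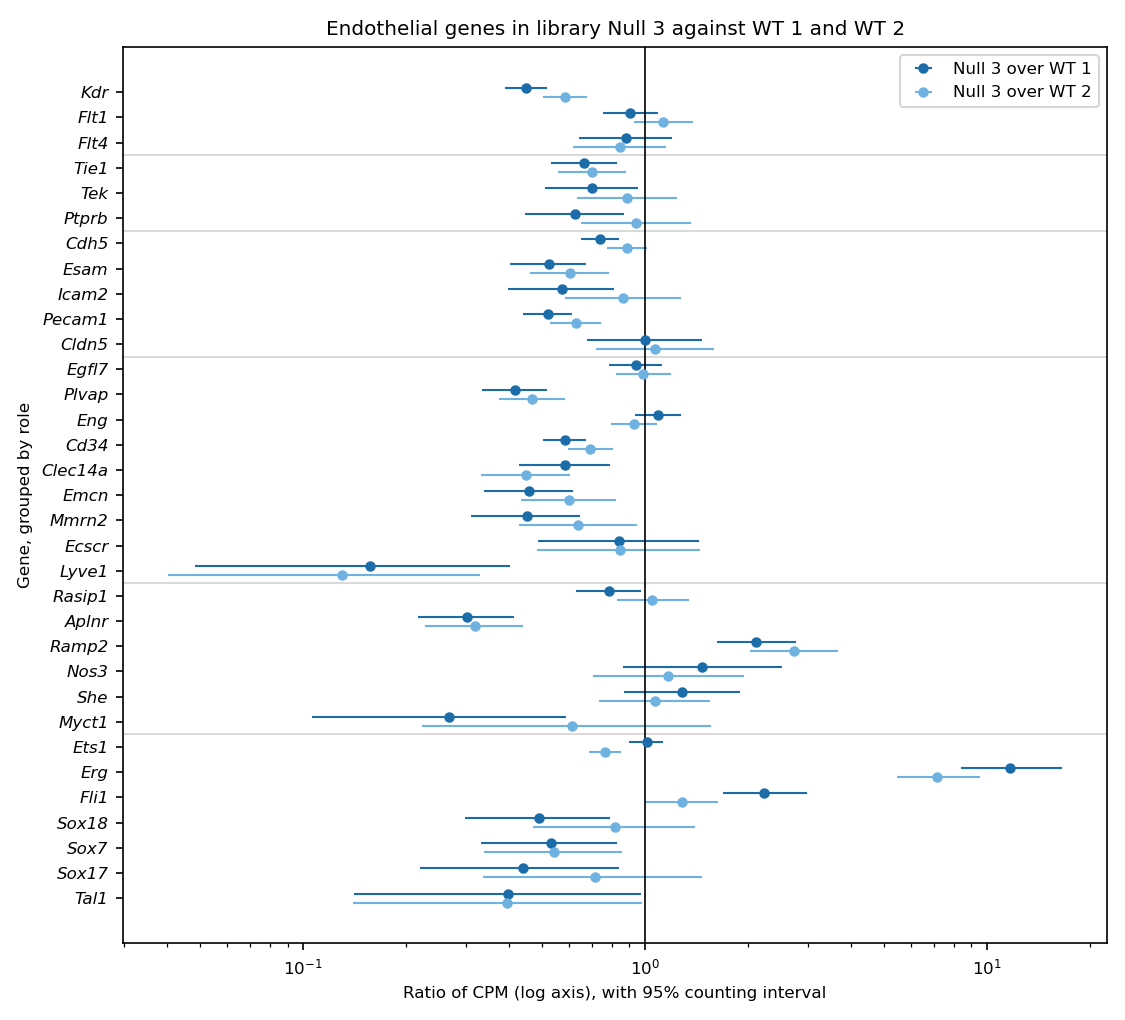
Ratio of CPM in Null 3 to WT 1 (dark) and to WT 2 (light) for each of the 33 genes, on a log axis, with exact 95% counting intervals from 1 library each. Most genes lie below 1, Erg lies at 11.7 and 7.16, and Lyve1 at 0.157 and 0.130.

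Genotypes were compared in pairs on 6 libraries each with edgeR's quasi-likelihood test over all genes, and a gene was called at a Benjamini-Hochberg adjusted p under 0.05 with an absolute log2 fold change over 0.5. edgeR's filter on low counts asks for counts in at least 3 of the 6 libraries. In heterozygote against WT a member had to reach the minimum in at least 1 library besides WT 1 and WT 2, and 10 members, among them Emcn and Sox7, did not pass, so that the genes that passed are not all members. An exact permutation test of 3 embryos against 3 reaches a two-sided p of 0.1 at best.

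Between null and WT ducts, the endothelial genes did not differ beyond the spread between embryos. Of the 30 members that passed the filter, 0 were called, beside 1.71% of 17168 genes tested, and 1, Clec14a, had an unadjusted p under 0.05, beside 12.2% of all genes. limma-voom called 0 (1.75% of all genes) and DESeq2, which gave 32 members an adjusted p, called 1, Lyve1, lower in Null (3.27%). For 0 of the 30 did each Null library lie below each WT library, against 8.95% of all genes. The log2 fold change was negative for 28 and positive for 2, with a median of -1.09 beside 0.01 for all genes, and its standard error had a median of 1.14 against 0.153 for all genes.

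The lowest log2 fold changes in Null, each given with its standard error, were those of Aplnr at -2.37 (1.14, edgeR adjusted p = 0.463), Plvap at -2.05 (1.28, edgeR adjusted p = 0.587) and Sox17 at -1.92 (1.48, edgeR adjusted p = 0.666). The highest were Erg at 2.07 (1.45, edgeR adjusted p = 0.635), Ramp2 at 0.24 (1.13, edgeR adjusted p = 0.951) and Rasip1 at -0.15 (0.279, edgeR adjusted p = 0.868). Without Null 3, Erg was at -2.25 and Ramp2 at -2.53, and limma-voom gave 0.01 for Erg and -0.92 for Ramp2. The 95% interval of the log2 fold change ran from -5.47 to 2.87 for Cdh5 and from -5.45 to 2.36 for Tie1, so that a change of several fold in either direction was not detectable at this spread. For Kdr it ran from -3.79 to 0.73. For Egfl7 it ran from -0.93 to 0.60 and for Rasip1 from -0.80 to 0.50, a closer bound. Clec14a stood at -1.58 (0.638, edgeR adjusted p = 0.369). Without Null 3, the median of the members was -3.92, and 2 of them, Ets1 and Cldn5, were called lower in edgeR, beside 2.51% of all genes. Null 3 was the Null library in which the members were high, so that these values follow from leaving it out and support nothing.

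Between heterozygote and WT ducts, the summed level of the members was lower in Het (32.2 to 39.6 CPM) than in WT 1 and WT 2, while that of WT 3 (34.5 CPM) lay within the range of Het. In WT 1 and WT 2 the mesenchyme sums (533.9 and 999.4 CPM against 69.1 to 115.7 CPM in Het) and the macrophage sums (37.6 and 53.6 CPM against 7.82 to 9.67 CPM) were above those of Het as well, and their part in the difference was not tested. Of the 23 that passed the filter, 0 were called by edgeR, beside 0.151% of 17269 genes, while 21 had an unadjusted p under 0.05, beside 13.1% of all genes. Most members rose and fell together over the libraries, so that these small p-values are not independent of each other. limma-voom called 0 (0.0637% of all genes) and DESeq2 13 of 33, each lower in Het (1.73%). The log2 fold changes ran from -4.82 to -0.55 with a median of -2.28, against 0.00 for all genes. In 6 members, Ramp2, Fli1, Nos3, Ets1, Cldn5 and Clec14a, each Het library lay below each WT library, beside 8.99% of all genes, and the other 17 overlapped, with WT 3 within or below the Het values.

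The smallest adjusted p was that of Nos3, whose log2 fold change was -3.26 with 0.628 as its standard error (edgeR adjusted p = 0.0649). Nos3 had 27, 32 and 12 counts in WT and 3, 3 and 1 in Het, so that it passed the filter through WT alone. Its adjusted p and its lack of overlap with WT are thus no separate support. Cldn5 had -2.28 (0.484, edgeR adjusted p = 0.0766), Clec14a -2.01 (0.421, edgeR adjusted p = 0.0766), Ets1 -1.89 (0.414, edgeR adjusted p = 0.0796) and Fli1 -3.19 (0.719, edgeR adjusted p = 0.0887). Cdh5 had the lowest log2 fold change, -4.82 (1.36, edgeR adjusted p = 0.154), followed by Plvap at -4.21 (0.999, edgeR adjusted p = 0.0961) and Tie1 at -3.83 (1.16, edgeR adjusted p = 0.183). Egfl7 stood at -0.56 (0.240, edgeR adjusted p = 0.355) and Rasip1 at -0.55 (0.251, edgeR adjusted p = 0.390). The number of calls changed with the library set, the filter and a replicate block. With the replicate number of the labels as a block, edgeR called Fli1, Nos3 and Ets1 lower in Het, beside 197 of 17269 genes. Their edgeR adjusted p were 0.0163, 0.0275 and 0.0325, and the labels do not say that replicate numbers pair embryos. Without WT 3, edgeR called 31 of 33 members lower in Het (2.86% of all genes), as many as with all libraries and no filter on low counts (2.14%), and leaving out any other single library called 0. WT 3 was the WT library with a sum within the range of Het, so that the calls without it follow from that choice and support nothing. Without the filter, the edgeR adjusted p of Cdh5 was 1.28e-39, against 0.154 with it. On the same libraries limma-voom gave Cdh5 an adjusted p of 0.814. The median over all 33 members was -3.12 without the filter and -3.64 without WT 3.

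Between null and heterozygote ducts, 0 of the 16 members that passed were called, beside 0.615% of 17067 genes, and 1, Flt1, had an unadjusted p under 0.05, beside 11.4%. limma-voom called 0 (0.586%), whereas DESeq2 (1.96%) and edgeR without the filter (1.15%) each called Flt1 alone, higher in Null. On the log2 scale Flt1 stood 1.70 higher in Null, with 0.523 as its standard error (edgeR adjusted p = 0.286), and was the 1 member whose Null libraries each lay above each Het library, beside 9.06% of all genes. The median of the 16 was 0.87 against 0.01 for all genes, with Cdh5 at 3.53 (1.74, edgeR adjusted p = 0.483), Kdr at 1.43 (0.727, edgeR adjusted p = 0.496), Egfl7 at 0.41 (0.245, edgeR adjusted p = 0.555) and Rasip1 at 0.40 (0.223, edgeR adjusted p = 0.517). Over all 33 members, without the filter, it was 1.69, limma-voom gave 0.39 for the 16, and without Null 3 edgeR gave -0.15. The comparisons share libraries, so that their values are not independent of each other.

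**Figure D3:**
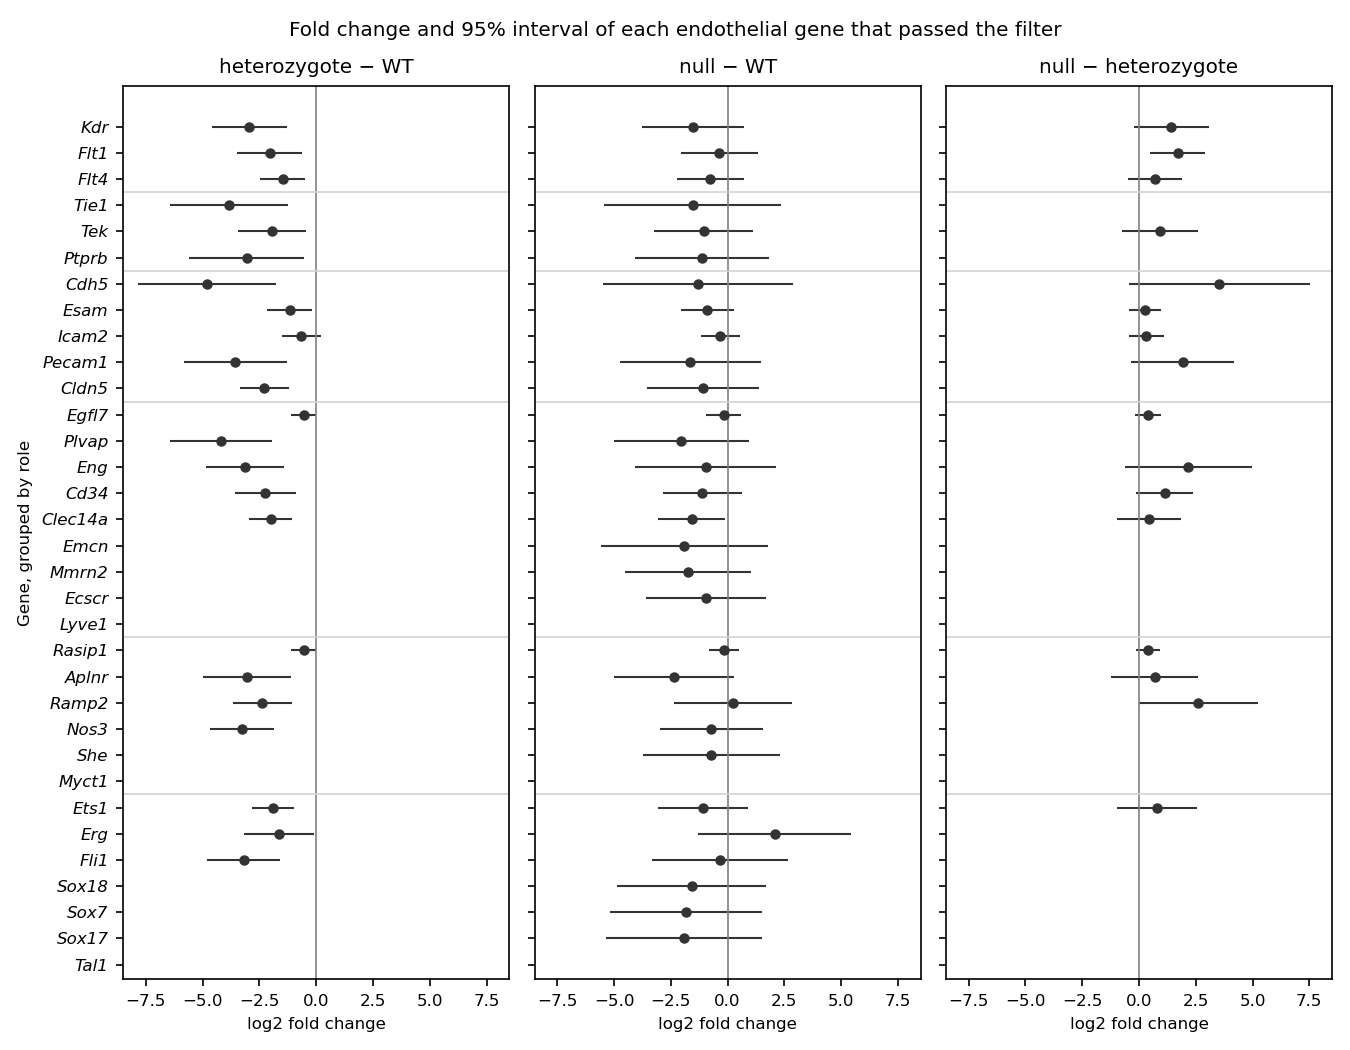
Log2 fold change (point) and 95% interval (bar) from edgeR for each endothelial gene that passed the filter, in 3 comparisons of genotypes. Intervals against WT in Null all cross 0 except that of Clec14a, those in Het lie below 0 except for Icam2 and Rasip1, and 10, 3 and 17 genes are without a point in the left, middle and right panel.

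A fit over the 6 libraries that remain without WT 1, WT 2 and Null 3, chosen after the values were seen, called 0 of 23 members in null against WT (1.09% of all genes), in heterozygote against WT (0.0732%) and in null against heterozygote (1.05%). The medians were then 0.27, 0.10 and -0.36. The libraries were left out because these members were high in them, so that small differences are fixed by that choice and support nothing. This fit has 1 WT library, WT 3, which is assumed to vary like the other genotypes.

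**Figure D4:**
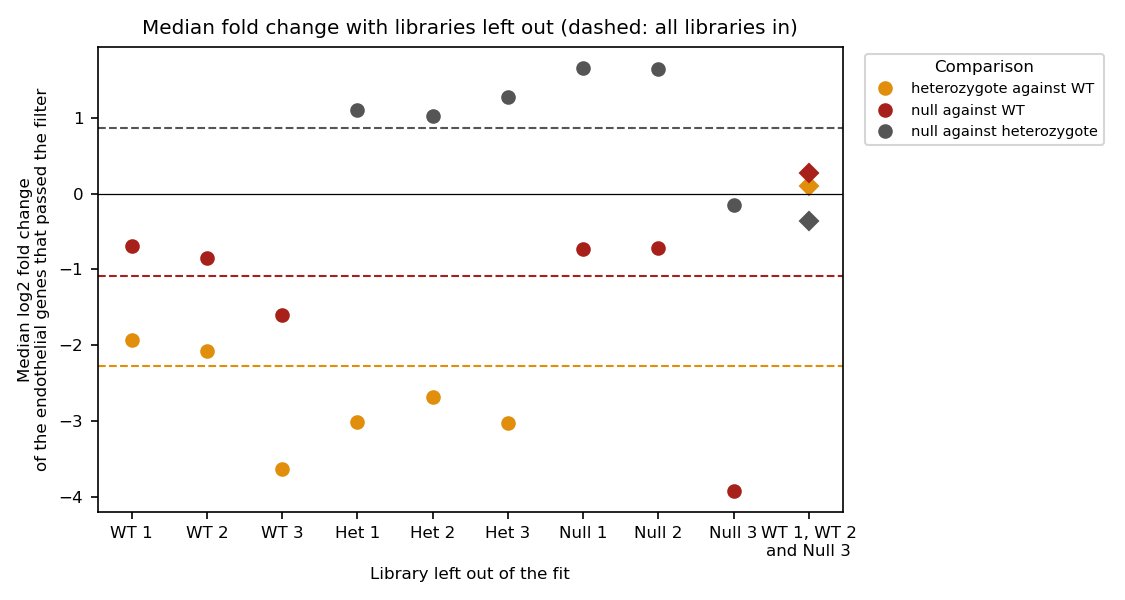
Median log2 fold change of the endothelial genes that passed the filter, with 1 library left out (circles) or WT 1, WT 2 and Null 3 left out together (diamonds), for 3 comparisons. Dashed lines give the medians with all libraries at -2.28, -1.09 and 0.87, and the diamonds lie at 0.10, 0.27 and -0.36.

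Other genes of vessels were compared in lists written by hand. Of 24 further vessel genes, 14 of the 23 with counts were highest in WT 1, WT 2 and Null 3, and 0 were called in any comparison, with median log2 fold changes of -0.84 in Null and -1.43 in Het against WT. The list is led by Slc2a1, a glucose transporter, and Nr2f2, a factor of veins that mesenchyme and epithelium also make, and its sum moved little (323.6 to 475.7 CPM). By contrast, 20 ligands and co-receptors that act on endothelium summed to 998.6 to 1171 CPM, and 0 of them were called. Vegfa, the ligand of Kdr and Flt1, was at 146.1 to 177.9 CPM, and Efnb2 and Ephb4, the ephrin pair of arteries and veins, at 355.4 to 483.1 CPM and 182.7 to 213.7 CPM. The sum of this list, which these abundant genes carry, varied 1.17-fold between libraries. Single receptors in it did not stay level, as Nrp2, a VEGF co-receptor named after its values were seen, was at 48.9, 73.8 and 56.1 CPM in WT 1, WT 2 and Null 3 and 11.3 to 33.8 CPM elsewhere, and Nrp1 at 18.7, 17 and 14.3 CPM against 5.07 to 9.97 CPM. The 14 genes of pericytes and smooth muscle, the cells that wrap vessels, summed to 453.8 to 516.8 CPM, and to 667.4 CPM in Null 3. In Null 3 the proteoglycan gene Cspg4, named after its values were seen, was at 171.7 CPM, against 5.46 to 9.41 CPM in the other libraries, and without it the list summed to 495.7 CPM there and 448.2 to 509.3 CPM in the others. Of these, 1 was called, Anpep, 0.52 higher on the log2 scale in Null than in WT (edgeR adjusted p = 0.0468), and Notch3 and Mcam, which carry the sum at 188.4 to 272.3 CPM and 110.7 to 147.2 CPM, were not. The pericyte marker Pdgfrb, also named after its values were seen, followed the endothelial genes, at 30.4, 41.3 and 32.8 CPM in WT 1, WT 2 and Null 3 and 8.17 to 10.7 CPM elsewhere. Only 3 of the 14 pericyte and smooth muscle genes, Pdgfrb among them, had these as their highest libraries, so that Pdgfrb does not stand for the list.

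Markers of other tissues moved with the endothelial genes. The 14 genes of periotic mesenchyme summed to 533.9, 999.4 and 128.8 CPM in WT, 69.1, 115.7 and 85.1 CPM in Het and 79.1, 49.4 and 1805 CPM in Null, and 11 of the 14 had WT 1, WT 2 and Null 3 as their highest libraries. Its most abundant genes were the collagens Col1a2, at 15.9 to 513.1 CPM, and Col3a1, at 6 to 498.7 CPM. Mesenchyme and endothelium thus did not keep one ratio, since Null 3 led in mesenchyme and WT 1 in endothelium. The 14 genes of macrophages and leukocytes summed to 37.6, 53.6 and 10.6 CPM in WT, 9.67, 8.21 and 7.82 CPM in Het and 11.9, 11.6 and 28.0 CPM in Null, with 12 of the 14 highest in the same libraries. In this list Mrc1, a mannose receptor of tissue macrophages, was called higher in Null than in Het, by 2.65 on the log2 scale (edgeR adjusted p = 0.0220), and Cd68 was not called.

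Haemoglobins and other red cell genes, 12 matched, summed to 160.6, 247.8 and 89.8 CPM in WT, 45.3, 39.6 and 61.0 CPM in Het and 127.7, 60.3 and 117.7 CPM in Null. Blood RNA, led by Hbb-bs and Hba-a1, was thus high in Null 1 as well, where endothelial genes were low. The 8 melanocyte genes, led by Dct and Pmel, summed to 121.9, 171.1 and 79.7 CPM in WT, 46.1, 63.7 and 44.8 CPM in Het and 28.9, 24.7 and 67.9 CPM in Null. Schwann cell and glial genes, led by Sox10 and Erbb3 (1413 to 1700 CPM), and neuron genes (218.9 to 303.0 CPM) did not share this order. Isl1, a transcription factor that the cochlear epithelium also makes, carried most of the neuron sum at 175.1 to 273.2 CPM, and Tubb3, a neuronal tubulin, was at 7.45 to 11.9 CPM. The neuron gene Stmn2 was called lower in Null (log2 fold change -2.96, edgeR adjusted p = 0.00343) and in Het (-1.42, edgeR adjusted p = 0.0107) than in WT, and Tectb of the epithelium list higher (0.94, edgeR adjusted p = 0.0326, and 0.62, edgeR adjusted p = 0.0107). The part of these other tissues in the endothelial levels was not tested.

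**Figure D5:**
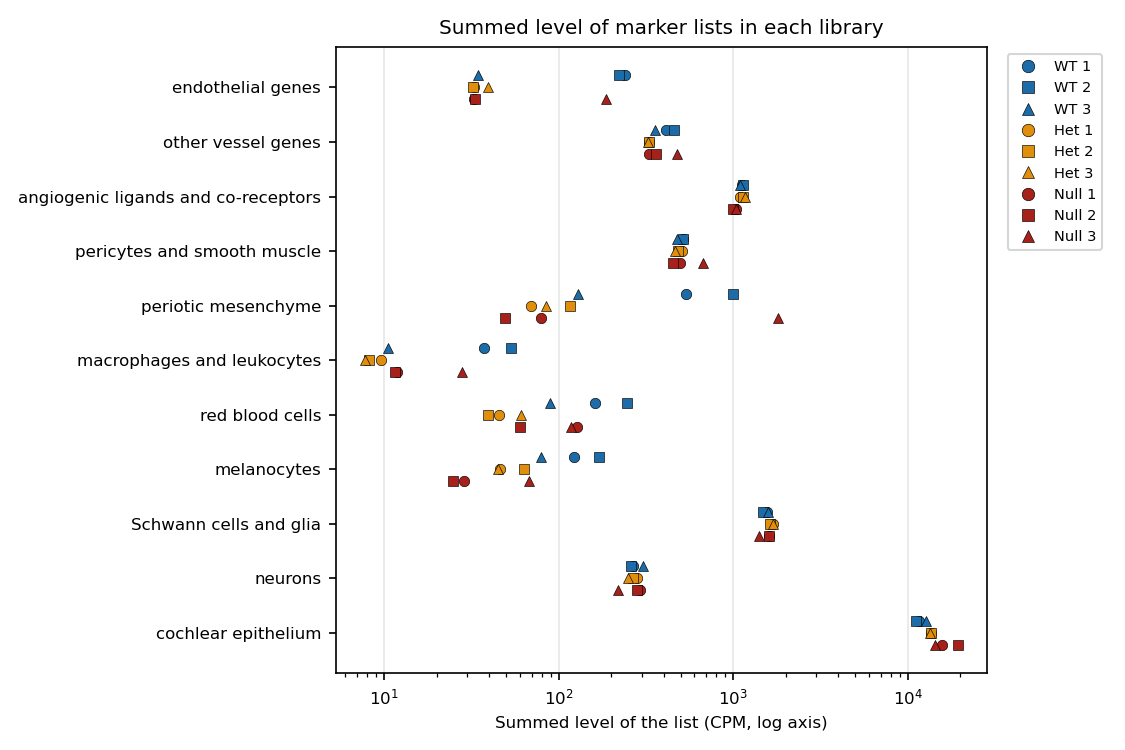
Summed CPM of each marker list (rows) on a log axis, with 1 symbol for each library, coloured by genotype. Endothelial, mesenchyme and macrophage sums set WT 1, WT 2 and Null 3 above the other libraries, while the sums for ligands and co-receptors, glia, neurons and epithelium differ less than 2-fold.

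The genes whose levels followed the members most closely were found by the correlation, over 9 libraries, of log2 CPM centred within genotype with the median of the members. Among 14782 other genes with a mean of 1 CPM or more, the 10 highest were Zic5 (Pearson's r = 0.994), Plxnd1 (0.994), Nbl1 (0.992), Adgrf5 (0.991), Cdkn2c (0.987), Cyp1b1 (0.987), Abca9 (0.986), Entpd1 (0.986), Robo4 (0.983) and Acvrl1 (0.981). Plxnd1 was at 57.1, 44.5 and 31.1 CPM in WT 1, WT 2 and Null 3 and 3.90 to 7.53 CPM elsewhere. Zic5 was at 4.11, 4.78 and 2.05 CPM against 0.0412 to 0.219 CPM. Adgrf5, Robo4 and Acvrl1 also stand in the list of further vessel genes. After centring, these values rest mainly on the differences of WT 1 and WT 2 from WT 3 and of Null 3 from Null 1 and Null 2, in which markers of other tissues differed as well, and are given as a description. Within the members, the correlation with the median of the other members was 0.55 for Icam2, 0.76 for Rasip1, 0.82 for Erg and 0.83 for Egfl7, and reached 0.99 for Flt4 and Tie1. The periotic mesenchyme genes had a median r of 0.90 and the cochlear epithelium genes of -0.72, with all 12 of the latter negative.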

How the data were processed

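Libraries were prepared with TruSeq mRNA-Seq at a sequencing core and sequenced as single reads of 50 bases. The submitters' processing notes name cutadapt 1.13, STAR, HTSeq 0.6.1p1, DESeq2 and mm10. The deposited values are raw counts per Ensembl gene, without normalization; the strand setting and annotation release are not given in the sources used here, so reads of antisense or overlapping genes may be shared. Genes were named from GENCODE M21, on the same build. Members and lists were chosen with earlier results of these data known.

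Counts were fitted with edgeR 4.0.16 (TMM, filterByExpr with a minimum count of 10, quasi-likelihood test) in R 4.3.3 for each pair of genotypes (6 libraries). Standard errors in edgeR were computed back from the log2 fold change and the F statistic of the test. The 95% intervals were built from them with a t quantile, so that an interval restates the p-value of its test. In counts simulated for null against WT over 17168 genes, edgeR recovered 55 of 100 genes changed by 1 and 79 of 100 changed by 2 on the log2 scale, with 9 false calls, and DESeq2 made 41 false calls; the members vary more than most genes, so that these shares do not give the power for them. DESeq2 1.42.0, limma-voom (limma 3.58.1), other normalizations and filters, a fit of 9 libraries, a replicate block and left-out libraries were alternatives. Every member was named; values per library were given for members leading their role per length, for the 3 highest and 3 lowest log2 fold changes in null against WT and for mean counts under 10. Values of further members, among them Flt1, Lyve1 and Clec14a, were added after they were seen. From the other lists, called genes and the 2 most abundant were named, and Vegfa, Nrp1, Nrp2, Pdgfrb and Cspg4 were added after their values were seen. Nothing says that embryos of one genotype came from more than 1 litter.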

Additional observations from a re-analysis of the deposited data

How the results depend on the processing

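The median log2 fold change of the members was -1.09 in null against WT and ranged from -3.92 (without Null 3) to -0.69 with 1 library left out, was -2.28 in heterozygote against WT and ranged from -3.64 (without WT 3) to -1.93, and was 0.87 in null against heterozygote and ranged from -0.15 (without Null 3) to 1.66. With all 9 libraries in one fit, which tested 30 members in place of 16, the last was 1.84, beside 1.69 over 33 members without the filter. Without WT 1, WT 2 and Null 3, chosen after the values were seen, the medians were 0.27, 0.10 and -0.36. The number of members called ranged from 0 to 2 in null against WT and from 0 to 31 in heterozygote against WT with 1 library left out. The upper counts came from leaving out Null 3 and WT 3, and follow from that choice. DESeq2 called 1, 13 and 1 members in the order of the comparisons above, and edgeR without a filter 0, 31 and 1. Over all genes, DESeq2 called 618, 318 and 357 against 293, 26 and 105 in edgeR. Without a filter edgeR called 476 of 31997, 684 of 32010 and 366 of 31930 genes. With 1 library left out edgeR called 68 (without WT 2) to 446 (without Null 3), 0 (without Het 2 or Het 3) to 505 (without WT 3) and 12 (without Het 1) to 182 (without Null 3). The cause of these differences was not tested.

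Without WT 1, WT 2 and Null 3, some signs turned. In null against WT the log2 fold changes became -0.24 for Erg, -0.71 for Ramp2, 0.33 for Rasip1, 0.35 for Kdr, 3.69 for Tie1, 4.87 for Cdh5 and 0.36 for Egfl7. In heterozygote against WT they became 6.76 for Cdh5, 6.32 for Tie1, 0.08 for Kdr, 0.17 for Egfl7 and 0.03 for Rasip1, and in null against heterozygote -1.89 for Cdh5. WT 3 holds 0 counts of Cdh5 and Tie1, so that their fitted values against it depend on the prior count and are no bound. limma-voom gave -0.92 for Ramp2 in null against WT. With 1 library left out, null against WT ranged from -2.25 to 2.70 for Erg, from -2.53 to 0.78 for Ramp2, from -0.37 to 0.12 for Rasip1 and from -0.42 to 0.07 for Egfl7, and null against heterozygote from -1.90 to 4.36 for Cdh5.

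The labels number libraries 1 to 3 in each genotype and do not say whether the numbers pair embryos. Deviations from the genotype means correlated at -0.284 to 0.202 in the 9 same-numbered pairs (3 above 0.1). Pairs of different numbers ran from -0.327 to 0.349. With deviations taken from means of 3 libraries, such correlations cannot decide whether embryos were paired. With the replicate number as a block, 0 of 30 members were called in null against WT and 0 of 16 in null against heterozygote. In heterozygote against WT, 3 of 23 (Fli1, Nos3 and Ets1) were called. Over all genes, the block called 133 of 17168 in null against WT, 197 of 17269 in heterozygote against WT and 52 of 17067 in null against heterozygote. Without the block these counts were 293, 26 and 105. The medians of the members, in that order, were -1.84, -2.16 and 0.50. In null against WT this block gave -0.59 for Erg and -1.17 for Ramp2. Summed levels per library moved by less than the spread between replicates with RLE or no composition normalization, and without the 3 highest members they were 167.0, 151.6 and 138.7 CPM in WT 1, WT 2 and Null 3 and 20.1 to 27.3 CPM elsewhere. Outside the 3 high libraries most members hold few counts, and 3 embryos a genotype limit every comparison.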
